A study of Mus musculus with 15 samples.

Results

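The imprinted growth gene network described here holds 10 of the 56832 genes in the count table: Plagl1, Igf2, Dlk1, Mest, Peg3 and Nnat, which are expressed from the paternal chromosome, and H19, Cdkn1c, Meg3 and Grb10, which in most tissues are expressed from the maternal one. The group was chosen by the value of Plagl1, which was lower in TauT-/- than in TauT+/+ bone marrow mesenchymal stromal cells (MSCs). The other 9 genes were listed by name as its partners. The values that chose the group are the counts of the same 15 libraries, so the Plagl1 difference is given as a description.

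TauT, encoded by Slc6a6, is the membrane transporter that carries taurine into cells, and the study asked what its loss does to MSC function. MSCs were grown from the long bones of 16 week old global TauT knockout mice (TauT-/-) and their TauT+/+ controls on the C57BL/6J background, and bulk RNA was sequenced after enrichment. The methods give 2 ways of enriching, magnetic depletion of CD45+, Ter119+ and CD31+ cells or sorting by flow cytometry, whereas the series text names CD45 only, and which was used for a given library is not stated in the sources used here. The labels give 4 TauT+/+ and 4 TauT-/- male libraries and 3 TauT+/+ and 4 TauT-/- female libraries, numbered within each group. The knockout is global and not limited to MSCs, so a change inside MSCs and one set by the rest of the body cannot be told apart, and the labels do not say whether the libraries of a group come from separate animals.

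Genomic imprinting leaves a gene active on only one parental chromosome, through DNA methylation laid down in the egg or the sperm at a control region. Many imprinted genes regulate growth before and after birth, the paternally expressed ones often promoting it and the maternally expressed ones often holding it back. PLAGL1, also called ZAC1, is a zinc finger transcription factor that slows proliferation, binds GC-rich DNA and has been linked to the control of other imprinted genes, H19, Igf2, Cdkn1c and Dlk1 among them. In skeletal and marrow stroma, imprinted genes are known from fetal growth, from the balance of fat and bone formation and from quiescence of stem cells.

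Depth differed by label, with 69764291 to 101575071 counts in male and 12761107 to 20781070 counts in female libraries, so labelled sex and depth cannot be told apart. Values are CPM, counts scaled to a common depth after TMM correction of the library sizes. Slc6a6 itself had 592 to 2591 CPM in TauT+/+ and 401 to 1521 CPM in TauT-/- libraries (log2 fold change −0.97, SE (standard error) 0.36, adjusted p = 0.125 by edgeR), and since the genotypes overlapped, every library is named as it is labelled. Which exons the knockout removes was not known here, so Slc6a6 reads are an incomplete check of the labels. Sex-linked genes went against the label in 3 libraries, the male TauT+/+ library 1, the male TauT-/- library 1 and the female TauT+/+ library 3. In each genotype the male and female libraries numbered 1 were nearly the same, with a spread of the log2 ratio over genes of 0.114 in TauT+/+ and 0.102 in TauT-/-, against 0.261 for the next closest pair and 0.0618 and 0.0589 from counting error alone. The excess over counting error does not show whether they are separate samples, and the 15 libraries were kept as labelled, with values from 13 libraries given where they differ. Stromal markers summed to 27880 to 47230 CPM in TauT+/+ and 6098 to 40100 CPM in TauT-/- libraries. That sum rests mainly on Col1a1, Cxcl12 and Col1a2, with means of 12880, 12120 and 7173 CPM in TauT+/+. Of the 12 stromal genes, 9 were lower in TauT-/- and 3, Cd44, Itgb1 and Nt5e, were higher. These genes were named after their values were seen. Lepr, a marker of marrow stroma in the animal, reached only 2.35 CPM and was at 0 in some libraries. Ptprc, which encodes CD45, was present in every library at 27.9 to 369.6 CPM, and the macrophage markers summed to 1306 to 9169 CPM in TauT+/+ and 6151 to 19220 CPM in TauT-/- libraries, with 13 of 13 genes of that list higher in TauT-/- and Cd68 past the threshold. None of those 13 genes was at 0 in any library. In bulk RNA fewer cells of a type and less RNA per cell cannot be told apart. Over all 17204 genes tested, 8315 were higher and 8885 lower in TauT-/-, and edgeR called 0.75% lower and 0.546% higher. Of the tested endothelial, osteoblast and adipocyte markers, 4, 1 and 0 were higher and 1, 4 and 5 were lower. Adipocyte markers summed to 204.7 to 1184 CPM in TauT+/+ and 166.5 to 383.6 CPM in TauT-/- libraries.

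Plagl1, the member whose value chose the group, lies on chromosome 10 of GRCm39 from 12936248 to 13007438 on the plus strand. Part of the upstream window of its RefSeq start site is shown because its value chose the group, together with windows of other members for comparison. The windows come from the RefSeq promoter table of assembly GRCm38.p6, were placed on GRCm39 by exact match, and were cut where an annotated exon begins. Capitals mark GGGGCC or its reverse complement GGCCCC, a GC-rich word searched on both strands with overlapping matches allowed.
Plagl1 (chr10:12966326-12966408, plus strand): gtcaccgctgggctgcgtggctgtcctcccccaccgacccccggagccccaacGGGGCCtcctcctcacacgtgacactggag
Mest (chr6:30737799-30738043, plus strand): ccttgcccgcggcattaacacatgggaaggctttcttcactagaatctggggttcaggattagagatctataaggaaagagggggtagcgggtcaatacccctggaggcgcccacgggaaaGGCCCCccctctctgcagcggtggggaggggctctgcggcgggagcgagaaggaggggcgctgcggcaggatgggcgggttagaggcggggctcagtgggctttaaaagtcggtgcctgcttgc
Grb10 (chr11:11987421-11987670, minus strand): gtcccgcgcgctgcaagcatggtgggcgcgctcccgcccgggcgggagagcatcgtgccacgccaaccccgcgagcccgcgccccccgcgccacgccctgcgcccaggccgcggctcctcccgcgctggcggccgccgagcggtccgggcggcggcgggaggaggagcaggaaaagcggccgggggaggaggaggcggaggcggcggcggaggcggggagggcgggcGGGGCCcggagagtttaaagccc
Dlk1 (chr12:109418499-109418748, plus strand): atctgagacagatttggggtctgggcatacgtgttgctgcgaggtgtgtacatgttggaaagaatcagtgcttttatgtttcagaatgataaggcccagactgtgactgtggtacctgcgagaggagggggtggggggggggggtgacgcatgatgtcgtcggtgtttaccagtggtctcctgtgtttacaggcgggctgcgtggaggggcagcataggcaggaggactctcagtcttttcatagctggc
Meg3 (chr12:109506629-109506876, plus strand): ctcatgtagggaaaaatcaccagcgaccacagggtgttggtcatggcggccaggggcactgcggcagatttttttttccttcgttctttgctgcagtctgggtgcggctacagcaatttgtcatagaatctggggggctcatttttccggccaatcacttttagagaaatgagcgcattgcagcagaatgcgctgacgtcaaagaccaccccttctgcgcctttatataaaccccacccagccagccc

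The word occurred in 22% of all 32851 upstream windows of 250 bases and in 8 of the 15 windows of the 8 members that the table holds, some of which overlap. H19 and Cdkn1c are not in that table. The full Plagl1 window had 19 CpG dinucleotides and 70.4% G and C, against medians of 6 CpG and 52.4% over all windows, and 80.3% of windows had fewer CpG. The Grb10 window shown had 40 CpG. The Dlk1 and Meg3 windows, with 8 and 10 CpG, did not hold the word. A match describes the letters only.

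Plagl1 stood at 6.90, 51.9, 8.39 and 6.32 CPM in the male TauT+/+ libraries 1 to 4 and at 9.37, 18.0 and 39.7 CPM in the female TauT+/+ libraries 1 to 3. It stood at 0.956, 1.72, 2.64 and 0.171 CPM in the male TauT-/- libraries 1 to 4 and at 0.838, 6.53, 0.139 and 0.313 CPM in the female ones. These values rest on 78, 150, 259 and 15 reads in the male and 16, 136, 2 and 6 reads in the female ones. The value of the female TauT-/- library 3 is below the 0.208 CPM that a count of 0 allows there. Under either sex label every TauT-/- library lay below every TauT+/+ library, although over all 15 libraries the highest TauT-/- value, in female library 2, was just above the lowest TauT+/+ value, in male library 4. TauT+/+ libraries averaged 20.1 ± 18.3 CPM (SD, n = 7) and TauT-/- libraries 1.66 ± 2.14 CPM (SD, n = 8), with medians of 9.37 and 0.897 CPM. As the measure that chose the group, the log2 fold change was −3.63 (SE 0.81), with −3.74 in male and −3.50 in female libraries. The SEs within a label were 1.17 and 1.21, and the difference of the 2 changes was 0.25 with an edgeR adjusted p of 0.9999.

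Since the genotypes did not overlap under either label, leaving out 1 library could not turn the sign of the Plagl1 change. Its size ran between −4.45 without the female TauT-/- library 2 and −2.96 without the male TauT+/+ library 2. The edgeR adjusted p over all genes, 0.0450 with all 15 libraries, stayed under 0.05 in 3 of the 15 fits without 1 library. Of 29 alternatives in all, which include tools other than edgeR, 8 gave an adjusted p under 0.05. Plagl1 chose the group from these same libraries, so its p-values show how the call depended on the fit and are no test. With the replicate number as a block the edgeR adjusted p was 0.0514, so the block ended the call. In the male libraries alone, where libraries of the same number deviated together, the blocked fit gave −3.62 (edgeR adjusted p = 0.513). Over all alternatives the adjusted p lay between 0.000128 with DESeq2 and 0.631 with edgeR in the male libraries alone. With the mean of the macrophage markers as a covariate the change was −2.48 (edgeR adjusted p = 0.441). The summed macrophage markers were 1306 CPM, the lowest sum, in the male TauT+/+ library 2, which had the most Plagl1. They were 18040 CPM in the female TauT-/- library 2, the highest TauT-/- library for Plagl1. Their part in the difference was not tested.

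**Figure D1:**
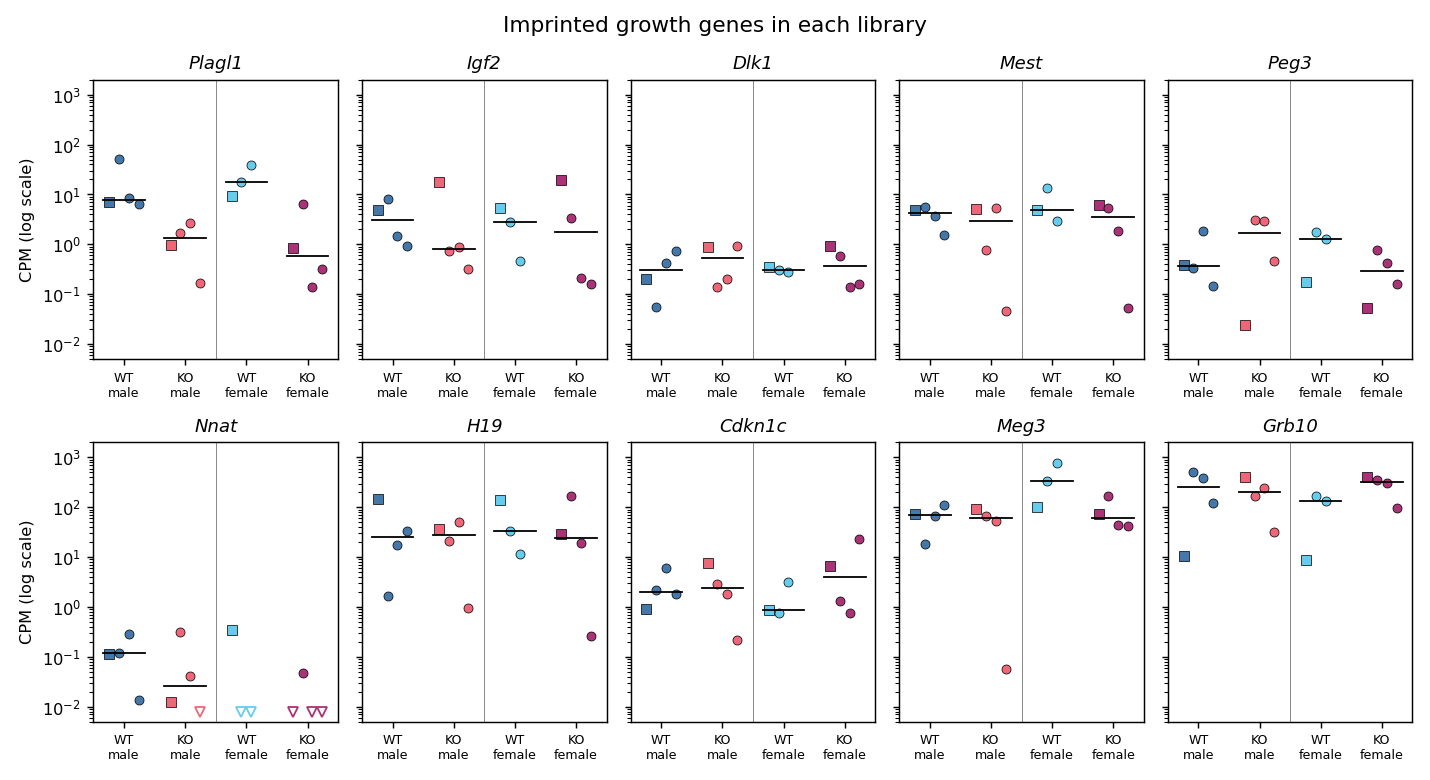
CPM of the 10 members on a log axis in each library, grouped by genotype and sex label; circles are libraries, squares the libraries numbered 1 (the near-identical pairs), open triangles libraries at 0, and bars group medians. Plagl1 is the only panel in which, within each sex label, all TauT-/- (KO) points lie below all TauT+/+ (WT) points of that label, while Meg3, H19, Mest and Grb10 each hold single libraries far below the rest of their group.

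Over all 17204 genes tested, edgeR called 129 lower (0.75%) and 94 higher (0.546%), and DESeq2 called 1106 lower (6.43%) and 972 higher (5.65%). Of the members, 9 passed the filter on low counts and Nnat did not. Apart from Plagl1, 0 of the 8 tested members were called lower or higher by edgeR or DESeq2, and 0 had an unadjusted p under 0.05. Of these 8, 4 were higher and 4 were lower in TauT-/- libraries, and their median log2 fold change was 0.26, against −0.015 over all tested genes. Genotypes that did not overlap under either label were found for 129 genes lower (0.75%) and 174 genes higher (1.01%) in TauT-/-, and among the members for Plagl1 alone. Within the male libraries, within the female libraries and for the difference between them, edgeR called 0 members and 0 genes overall (0% in each), where 1483, 2518 and 242 genes had an unadjusted p under 0.05 and DESeq2 called 87, 425 and 2 genes. These 8 members come from the same contrast and libraries as Plagl1 and were listed with it, so their values are not independent of the choice.

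Among the paternally expressed members, Igf2 encodes a fetal growth factor that signals through the IGF1 receptor. Its gene spans 142204503 to 142220694 of chromosome 7 (GRCm39). Igf2 had 4.79, 7.93, 1.48 and 0.941 CPM in male and 5.46, 2.75 and 0.461 CPM in female TauT+/+ libraries, listed here and in what follows in the order of their numbers. It had 18.1, 0.724, 0.896 and 0.318 CPM in male and 19.1, 3.31, 0.208 and 0.156 CPM in female TauT-/- libraries. The 2 TauT-/- libraries numbered 1 were far above all others, and the other 6 TauT-/- libraries lay within or below the TauT+/+ range. Its log2 fold change, 0.66 (SE 1.05, adjusted p = 0.735 by edgeR), turned to −0.79 without the male TauT-/- library 1. It was −0.67 in the 13 libraries that remain when the male one of each near-identical pair is dropped, and 0.13 when the female one is dropped. Igf2os, a gene that overlaps Igf2 on the opposite strand, was highest in the same 2 libraries, at 2.22 and 1.41 CPM. Reads of overlapping genes on opposite strands can be told apart only if the library kit marks strand, which the sources used here do not state.

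Dlk1 encodes a transmembrane protein of the Notch ligand family that holds back fat cell formation, and spans 109418749 to 109429262 of chromosome 12 (GRCm39). It was scarce in all libraries, at 0.204, 0.0556, 0.415 and 0.726 CPM in male and 0.345, 0.306 and 0.276 CPM in female TauT+/+ libraries. Dlk1 had 0.883, 0.138, 0.204 and 0.921 CPM in male and 0.943, 0.576, 0.139 and 0.156 CPM in female TauT-/- libraries. The genotypes overlapped, and each value rests on 2 to 81 reads. Dlk1 differed by 0.59 on the log2 scale (SE 0.58, adjusted p = 0.561 by edgeR), with the same sign in each of the 15 fits without 1 library, from 0.38 to 0.94.

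Mest, an alpha/beta hydrolase named for its expression in mesoderm and linked to fat cell size, spans 30723546 to 30752058 of chromosome 6 (GRCm39). It had 4.88, 5.54, 3.69 and 1.55 CPM in male and 4.94, 13.8 and 2.90 CPM in female TauT+/+ libraries, and 5.10, 0.781, 5.30 and 0.0455 CPM in male and 6.23, 5.33, 1.88 and 0.0521 CPM in female TauT-/- libraries. The TauT-/- libraries numbered 4 stood at the bottom under both labels, with 4 reads in the male and 1 read in the female one, and the rest overlapped with TauT+/+. The genotype difference of Mest was −0.76 on the log2 scale (SE 0.80, adjusted p = 0.589 by edgeR). Copg2, whose exons overlap those of Mest on the opposite strand, was at 46.0 to 88.9 CPM, above Mest in every library.

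Peg3, a zinc finger protein gene on chromosome 7 from 6706882 to 6733468 of GRCm39, had 0.393, 0.334, 1.87 and 0.148 CPM in male and 0.172, 1.76 and 1.29 CPM in female TauT+/+ libraries. Its values were 0.0245, 3.11, 2.91 and 0.455 CPM in male and 0.0524, 0.768, 0.417 and 0.156 CPM in female TauT-/- libraries. The 2 lowest and the 2 highest values of all were in TauT-/- libraries, so its log2 fold change of −0.0022 (SE 0.72, adjusted p = 0.999 by edgeR) had an interval of −1.41 to 1.41 (about 2 SE on each side) and its sign turned in 8 of the 15 fits without 1 library. Nnat, which encodes a small membrane protein best known from neurons and lies on chromosome 2 from 157401879 to 157404573, had 87 reads in all 15 libraries and was not tested. Nnat was highest in the female TauT+/+ library 1 with 0.345 CPM and was at 0 in 6 libraries, where a count of 0 allows up to 0.0341 CPM in the male and 0.138 to 0.229 CPM in the female ones (3 counts, counting error only). Blcap, which overlaps Nnat on the opposite strand, stood at 40.8 to 70.8 CPM.

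Among the maternally expressed members, H19 is a long non-coding RNA that shares enhancers and a control region with Igf2, and spans 142129262 to 142133957 of chromosome 7 (GRCm39). H19 had 147, 1.70, 17.6 and 33.5 CPM in male and 142, 33.2 and 11.5 CPM in female TauT+/+ libraries. It had 36.2, 20.6, 49.9 and 0.944 CPM in male and 29.6, 165, 19.03 and 0.261 CPM in female TauT-/- libraries. The genotypes overlapped over nearly the whole range, and the TauT-/- libraries numbered 4 were again the lowest under both labels. H19 differed by −0.58 on the log2 scale (SE 1.03, adjusted p = 0.764 by edgeR), and by 0.19 without the male TauT+/+ library 1.

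Cdkn1c encodes a cyclin-dependent kinase inhibitor of the Cip/Kip family that keeps stem cells quiescent, and lies on chromosome 7 from 143012069 to 143014806 (GRCm39). Cdkn1c had 0.932, 2.15, 6.06 and 1.83 CPM in male and 0.862, 0.765 and 3.22 CPM in female TauT+/+ libraries, and 7.58, 2.88, 1.82 and 0.216 CPM in male and 6.71, 1.30, 0.764 and 23.4 CPM in female TauT-/- libraries. The female TauT-/- library 4 was the highest and the male TauT-/- library 4 the lowest of all, with 448 and 19 reads. Its log2 fold change of 1.10 (SE 0.88, adjusted p = 0.467 by edgeR) was 0.46 without the female TauT-/- library 4. That library also had the lowest sum of stromal markers of all, 6098 CPM, and the highest sum of macrophage markers, 19220 CPM. Their part in its Cdkn1c value was not tested.

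Grb10 encodes an adaptor protein that binds the insulin and IGF1 receptors and dampens their signal, and spans 11880498 to 11988683 of chromosome 11 (GRCm39). It was the most abundant member by reads, with 10.7, 508, 388 and 122 CPM in male and 8.96, 169 and 132 CPM in female TauT+/+ libraries. Grb10 had 414, 170.3, 241 and 31.9 CPM in male and 404, 352, 304 and 98.0 CPM in female TauT-/- libraries. The low end was held by the TauT+/+ libraries numbered 1, followed by the male TauT-/- library 4, and the genotypes overlapped under both labels. Over all libraries Grb10 differed by 0.52 on the log2 scale (SE 0.79, adjusted p = 0.726 by edgeR). Its sign was negative in the male libraries (−0.26) and positive in the female ones (1.49), and the difference of 1.75 (SE 1.49) had an edgeR adjusted p of 0.9999.

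Meg3 is a long non-coding RNA expressed from the maternal chromosome of the Dlk1 to Dio3 region, spanning 109506877 to 109538165 of chromosome 12 (GRCm39). It had 72.9, 18.3, 68.0 and 109 CPM in male and 102, 343 and 763 CPM in female TauT+/+ libraries, and 91.7, 65.6, 53.8 and 0.0569 CPM in male and 74.1, 172, 45.1 and 42.5 CPM in female TauT-/- libraries. One library was set apart: the male TauT-/- library 4 held 5 Meg3 reads among 85630042 counts, while each of the other 14 held at least 650. Over all libraries Meg3 differed by −1.25 on the log2 scale (SE 0.85, adjusted p = 0.383 by edgeR), and by −0.77 without the female TauT+/+ library 3, which had the most Meg3.

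Of the other non-coding RNAs of the same maternal chromosome segment, Rian showed the same gap, and Mirg was lowest in the same library with a smaller gap. Both were named after the Meg3 values had been seen, from the list of imprinted genes. Rian, which hosts small nucleolar RNAs and lies from 109570242 to 109628150, had 5 reads (0.0569 CPM) in the male TauT-/- library 4 and 4.74 to 169 CPM in the other 14. Mirg, a host of many miRNAs from 109696198 to 109715898, had 0 reads there, which allows up to 0.0341 CPM, and 0.104 to 12.3 CPM elsewhere. Dlk1, the paternally expressed gene of the region, was at 0.921 CPM in that library, the second highest of the 15, and Dio3 at its far end was at 72.6 CPM, within the range of 1.15 to 707 CPM. The same library was also the lowest of the 15 for Mest and Cdkn1c and the second lowest for H19, and its stromal markers summed to 12370 CPM, the second lowest. The log2 fold changes of Rian and Mirg were −1.04 and −1.08 (edgeR adjusted p = 0.458 and 0.482). The female TauT-/- library 4 was next lowest for Rian, at 4.74 CPM, and for Mirg, at 0.104 CPM on 2 reads. It was the lowest for Dio3, at 1.15 CPM.

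**Figure D2:**
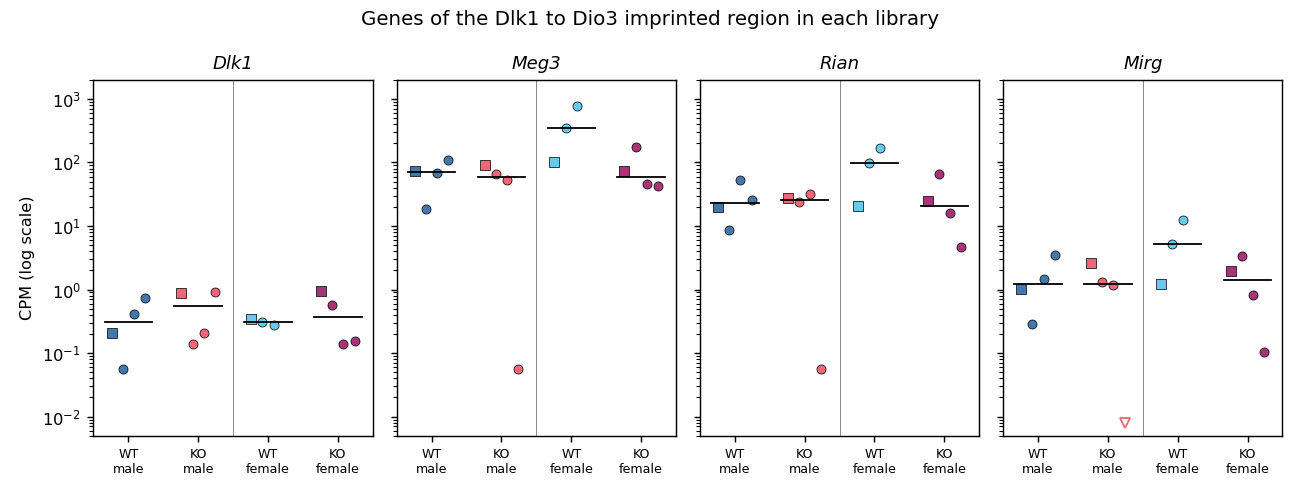
CPM on a log axis in each library for Dlk1 and the maternally expressed non-coding RNAs Meg3, Rian and Mirg, with symbols as above (squares are the libraries numbered 1, an open triangle a library at 0, bars group medians). The male TauT-/- (KO) library 4 has 0.0569 CPM of Meg3, 0.0569 CPM of Rian and 0 reads of Mirg, but 0.921 CPM of Dlk1.

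The balance of neighbouring genes that are expressed from opposite chromosomes was compared as log2 ratios of CPM with 0.5 CPM added. H19 to Igf2 averaged 3.17 ± 2.34 (SD) over the 7 TauT+/+ libraries and 2.77 ± 2.30 over the 8 TauT-/- libraries, a difference of −0.40 (two-sided exact permutation test over 2450 splits within the sex labels, p = 0.750). The ratios ranged from −1.94 to 4.80 in TauT+/+ and from 0.213 to 5.44 in TauT-/- libraries, so the difference was within the spread. In 13 libraries, 1 of each near-identical pair dropped, it changed sign, to 0.12 or 0.14. Dlk1 to Meg3 was −7.16 ± 1.64 in TauT+/+ and −5.36 ± 2.76 in TauT-/- libraries, a difference of 1.80 (exact permutation test, p = 0.109, adjusted over both ratios p = 0.218). The male TauT-/- library 4 was at 1.35 and the other 7 TauT-/- libraries between −7.33 and −5.69, and without it the difference was 0.84. Only in that library was the ratio above 0. Dlk1 stayed between 0.0556 and 0.943 CPM while Meg3 ran from 0.0569 to 763 CPM. With 0.5 CPM added, this ratio therefore mostly follows Meg3 and is not a separate measure of the region.

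**Figure D3:**
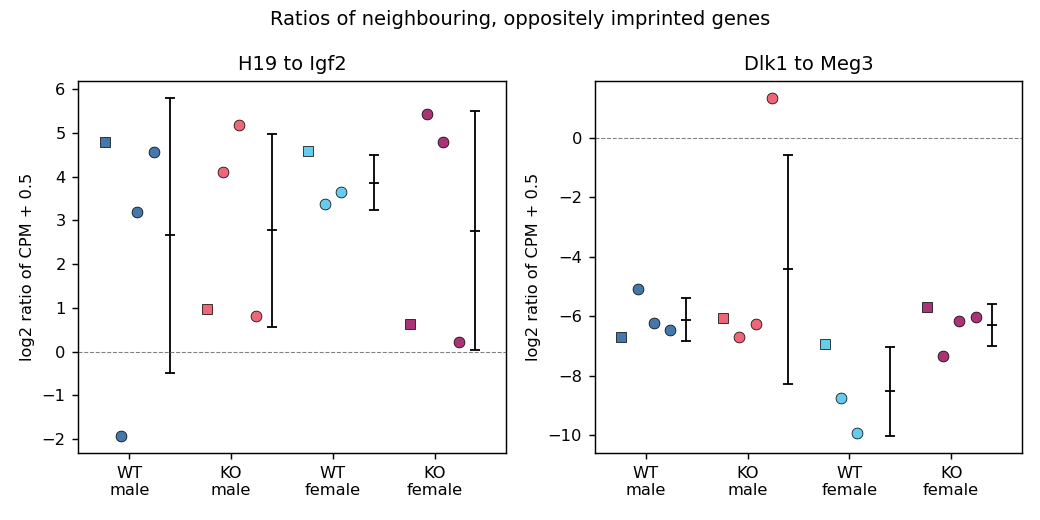
Log2 ratios of CPM + 0.5 of H19 to Igf2 (left) and Dlk1 to Meg3 (right) in each library; squares are the libraries numbered 1, and the black bars give the mean ± SD of each group of 3 or 4 libraries. H19 exceeded Igf2 in all libraries but the male TauT+/+ (WT) library 2, at −1.94, and Dlk1 exceeded Meg3 only in the male TauT-/- (KO) library 4, at 1.35.

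Per kilobase of annotated exon, the order of the median TauT+/+ levels was Grb10 (12.9 CPM per kb), H19 (11.7), Meg3 (5.30), Plagl1 (1.09), Cdkn1c (0.849), Mest (0.604), Igf2 (0.447), Nnat (0.0560), Dlk1 (0.0507) and Peg3 (0.0288). The ranges of each pair of neighbours in that order overlapped. In TauT-/- libraries the median Plagl1 level was 0.105 CPM per kb, below Cdkn1c, Mest and Igf2. The members also varied widely within a group. The standard deviation of log2 of CPM + 0.5 around the group means ran from 0.51 for Dlk1 to 2.58 for H19. It was 1.28 for Plagl1, against a median of 0.331 over all tested genes. The added 0.5 CPM narrows the spread of genes near or below that level, Dlk1 and Peg3 among the members. Of the tested genes, 96.1% had a smaller spread than Plagl1, 99.6% a smaller one than Meg3 and 99.9% a smaller one than H19. Among the tested members the ratio of the highest to the lowest library ran from 17-fold for Dlk1 to 13400-fold for Meg3, whose lowest value rests on 5 reads, with 632-fold for H19 and 56.7-fold for Grb10.

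**Figure D4:**
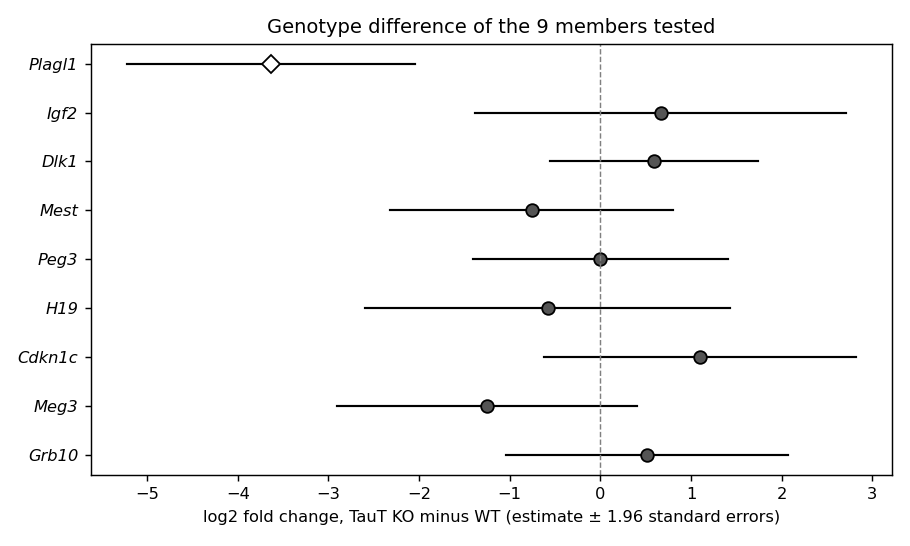
Log2 fold change of the 9 tested members, TauT-/- (KO) minus TauT+/+ (WT), from the edgeR fit over all genes; lines span about 2 standard errors on each side. The open diamond marks Plagl1 at −3.63, the value that chose the group, and every other line crosses 0, that of Igf2 reaching from −1.38 to 2.71 and that of Meg3 from −2.91 to 0.41.

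Whether other members followed Plagl1 from library to library was tested within each genotype. The choice of the group rested on the genotype difference in these same Plagl1 values, so the relations share those values with it. The libraries of a near-identical pair were averaged to 1 value, leaving 6 TauT+/+ and 7 TauT-/- values. Values were log2 of CPM + 0.5. Pairings were permuted over libraries of both sex labels, so differences between the labels, which differ in depth, can enter the coefficients. Some Plagl1 values of TauT-/- libraries rest on few reads, down to 2, so the coefficients there partly rest on values near the counting floor. None of the 16 relations passed the threshold after adjustment over all of them, in the exact permutation test over pairings (smallest adjusted p = 0.289 for Pearson's r and 0.273 for Spearman's rho). H19 had the largest coefficients of opposite sign, with r = −0.777 (rho = −0.886, exact permutation p = 0.0542 and 0.0333) in TauT+/+ and r = 0.787 (rho = 0.821, exact permutation p = 0.0399 and 0.0341) in TauT-/- MSCs. Without the 2 values farthest from the Plagl1 median these became −0.131 and 0.545. Dlk1 had r = −0.793 in TauT+/+ (rho = −0.657, exact permutation p = 0.0278 and 0.175) and 0.0258 in TauT-/- MSCs (rho = 0.0357, exact permutation p = 0.948 and 0.963), and −0.601 and −0.0937 without those values. The genes whose deviations from the group means were most like those of Plagl1 over the 15 libraries were no members: Camk2n2 (r = 0.951), Lca5l (0.935), Laptm4a (0.934), Lrrc28 (0.918) and Bfsp1 (0.912), among 13199 genes with a mean of at least 1 CPM. The libraries share depth and the pairs, and these coefficients are a description. Of the 6 other members that reached that mean, Grb10 came closest with 0.558, and 94% of the genes had a lower coefficient.

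Outside the members, 52 further imprinted genes were listed, of which 41 were tested. Of these 41, 25 were lower and 16 were higher in TauT-/- libraries, and the median log2 fold change was −0.12, against −0.015 over all tested genes. With edgeR 0 passed the threshold, 6 lower and 2 higher ones had an unadjusted p under 0.05, and DESeq2 called 5 lower and 0 higher. Over all tested genes 13% were lower and 10.6% higher at that unadjusted p, and DESeq2 called 6.43% and 5.65%. The median was −0.43 over the 16 genes listed as paternally and −0.063 over the 25 listed as maternally expressed. No allele was measured, so whether each gene is imprinted in these cells is not known here, and the 2 medians only describe the lists. Peg13, a paternally expressed non-coding RNA on chromosome 15, came nearest to the edgeR threshold and was named for that after the values were seen: its level averaged 71.0 ± 24.9 CPM (SD) over the 7 TauT+/+ and 37.8 ± 10.9 CPM over the 8 TauT-/- libraries, a difference of −0.91 on the log2 scale (SE 0.23, adjusted p = 0.0614 by edgeR).

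Of 15 genes that maintain or erase imprints, edgeR called 1 lower and 1 higher, as DESeq2 did, where over all tested genes edgeR called 0.75% and 0.546% and DESeq2 6.43% and 5.65%. Tet1, an enzyme that oxidizes methylated cytosine and so takes part in demethylation, had 5.50, 5.62, 3.97 and 11.8 CPM in male and 4.14, 3.67 and 3.04 CPM in female TauT+/+ libraries. It had 1.97, 2.54, 2.16 and 2.42 CPM in male and 1.99, 1.15, 1.39 and 1.51 CPM in female TauT-/- libraries. Every TauT-/- library was below every TauT+/+ library, and Tet1 fell by 1.43 on the log2 scale (SE 0.23, adjusted p = 0.0228 by edgeR). The call held in 20 of 30 alternatives, with a change between −1.55 and −1.20, and the edgeR adjusted p was 0.250 with the macrophage covariate and 0.0648 or 0.0942 with 13 libraries. Dnmt1, the methyltransferase that copies methylation at cell division, averaged 54.9 ± 11.6 CPM (SD) over the 7 TauT+/+ libraries and rose to 86.2 ± 15.3 CPM over the 8 TauT-/- libraries, by 0.64 on the log2 scale (SE 0.15, adjusted p = 0.0467 by edgeR). The male TauT+/+ library 3, at 77.1 CPM, overlapped with TauT-/- libraries, which began at 69.1 CPM. The Dnmt1 call held in 8 of 30 alternatives and not with the replicate block (edgeR adjusted p = 0.0565), and with the macrophage covariate its log2 fold change was 0.34.

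The relatives and partners of the members had no edgeR call. Plag1 and Plagl2, the paralogs of Plagl1, had log2 fold changes of 0.14 and 0.61 (edgeR adjusted p = 0.861 and 0.0939), and DESeq2 called Plagl2 higher. Of 15 genes of the IGF axis, which carries the Igf2 signal, 5 were higher and 10 were lower, with a median of −0.49, 3 of each having an unadjusted p under 0.05 and DESeq2 calling 2 lower and 1 higher, beside 13% lower and 10.6% higher at that p and 6.43% and 5.65% by DESeq2 over all tested genes. Igf2r, the receptor that clears IGF2 and is itself imprinted, is in that list. Cdkn1a and Cdkn1b, the relatives of Cdkn1c, had log2 fold changes of 0.18 and −0.63 (edgeR adjusted p = 0.581 and 0.131).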

How the data were processed

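Bulk RNA was sequenced from 15 libraries of cultured bone marrow MSCs. As the study's methods and the submitters' processing notes state, full-length cDNA was made from poly(A) RNA with SMART-Seq mRNA LP, reads were trimmed with fastp 0.23.1, mapped with STAR 2.7.9a to GRCm39 with GENCODE annotation, and counted by strand with featureCounts (Subread 2.0.1). The authors deposited raw read counts of 56832 genes, not normalized, and each column was matched to a labelled sample (0 unused). PCR reads carry no molecular identifiers, so intervals and floors cover counting error only.

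In R 4.3.3, edgeR 4.0.16 was used for the main test (TMM, filterByExpr, a quasi-likelihood fit on genotype and labelled sex, Benjamini-Hochberg over the 17204 genes tested, threshold 0.05). The biological coefficient of variation was 0.482. Contrasts within a sex label and their difference used 1 term per group. DESeq2 1.42.0, voom in limma 3.58.1, other normalizations and filters, no sex term, a replicate block, a macrophage covariate and left-out libraries were alternatives. The labels do not say what a replicate number marks. Deviations from the group means of same-numbered libraries correlated at 0.171 to 0.636 in the male libraries, each over 0.1, where 8 of 8 libraries correlated best with their own number, and at −0.0348 to 0.31 in the female ones (3 of 7), so the numbers paired the male libraries by this check and not the female ones. Ratios and correlations were tested by exact permutation in Python 3.11.15, and the scripts were tested on simulated counts. The near-identical libraries were kept as labelled, so the n of 7 and 8 rest on the labels, and p-values measure the spread between these libraries, which may be technical.

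The members and gene lists were chosen with earlier results of these data known. The genes named are the 10 members, list genes past the threshold, the 5 genes most like Plagl1, genes that overlap a member, and those said in the text to be named after their values were seen. Exon lengths and gene positions on GRCm39 were read from GENCODE M39, a newer release than that used for counting. Upstream windows are RefSeq's, from assembly GRCm38.p6, for 8 of the 10 members.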

Additional observations from a re-analysis of the deposited data

Results flagged for a closer look

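The 10 members were each looked at in the 3 groups of 4 libraries, and 7 of these 30 sets held 1 library far from its fellows. Normally distributed values would give about 1 in 20, or 1.5. The CPM values were skewed, as for Plagl1 in the male TauT+/+ group, with a mean of 18.4 and an SD of 22.4 CPM. All 7 flags were high values, so 7 beside 1.5 is not read as an excess. Dixon's ratio, the distance to the closest fellow over the full range of the set, is given in parentheses. Plagl1 was high in the male TauT+/+ library 2 (0.955), with 51.9 CPM against 6.32 to 8.39 CPM in the other 3, and in the female TauT-/- library 2 (0.891), with 6.53 CPM against 0.139 to 0.838 CPM. Igf2 was high in the male TauT-/- library 1 (0.968), with 18.1 CPM against 0.318 to 0.896 CPM, and in the female TauT-/- library 1 (0.833), with 19.1 CPM against 0.156 to 3.31 CPM. These 2 libraries are one of the near-identical pairs, so their flags are not independent. Peg3 was high in the male TauT+/+ library 3 (0.858), with 1.87 CPM against 0.148 to 0.393 CPM. Nnat was high in the male TauT-/- library 2 (0.873), with 28 reads, and in the female TauT-/- library 2 (1.0), with 1 read where the other 3 libraries had 0. A single nonzero library gives 1.0 whatever its reads, so that last value was fixed by the zeros and carries no weight in the count of 7. The female TauT+/+ group of 3 was not tested. Meg3 in the male TauT-/- library 4 did not reach the critical value on the CPM scale.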

How the results depend on the processing

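The Plagl1 log2 fold change, the value that chose the group, lay between −4.45 and −2.48 over all alternatives. No alternative called another member that was tested. With at least 10 counts in every library only Cdkn1c and Grb10 of the members were tested, and Dlk1 was also not tested with 13 libraries (female-labelled kept) or in the female libraries alone. edgeR's counts over all genes, 129 lower and 94 higher, were 1106 and 972 with DESeq2, 708 and 611 with voom, 258 and 188 without the sex term, 42 and 32 without the filter, and 200 lower with at least 10 counts in every library. They were 0 and 0 with the macrophage covariate, without the 3 libraries against their sex label, and in the male or the female libraries alone, where 1671, 3115, 1278 and 2014 genes had an unadjusted p under 0.05. With 13 libraries they were 0 and 2 (female-labelled kept) or 0 and 7 (male-labelled kept), with 3271 and 3640 genes at an unadjusted p under 0.05. Leaving out each library gave 4 to 779 lower and 8 to 476 higher genes, fewest lower without the female TauT+/+ library 1 or 2 and most without the male TauT+/+ library 3. DESeq2 called 87 genes within the male label, 425 within the female label and 2 for their difference. Of the other imprinted genes, 5 were lower with DESeq2, 2 with voom, 1 with the stricter filter, 1 without the sex term, and 0 to 2 when a library was left out. Igf2 turned to −0.31 with the replicate block, −0.72 with voom, −0.67 with 13 libraries (female-labelled kept, against 0.13 with the male-labelled kept) and −1.21 without the 3 libraries, and ranged from −0.79 to 1.02 when a library was left out. H19 turned to 0.013 with the block and 0.080 with 13 libraries (female-labelled kept), and ranged from −1.31 to 0.19. Peg3, near 0, turned to 0.0079 with RLE scaling, 0.0087 without the filter, 0.27 without the sex term, 0.047 with voom, 0.20 with 13 libraries (male-labelled kept), 0.15 without the 3 libraries and 1.27 in the male libraries, and ranged from −0.35 to 0.37. Grb10 was −0.27 in the male libraries. The ratio of H19 to Igf2 turned to 0.12 and 0.14 with 13 libraries, and ranged from −1.26 to −0.039 when a library was left out, while that of Dlk1 to Meg3 ranged from 0.84 to 2.14. The causes were not tested. The replicate block gave 177 lower and 82 higher genes and ended the edgeR calls of Plagl1 (adjusted p = 0.0514) and Dnmt1 (0.0565), while that of Tet1 held (0.0388). It changed the call of no other member that was tested. A replicate block in the male libraries alone, chosen after seeing the data, called 0 lower and 0 higher genes (1584 at an unadjusted p under 0.05), with Igf2 at −0.98, Peg3 at 0.84, Cdkn1c at −0.42 and Grb10 at −0.39. The female libraries, at 12761107 to 20781070 counts, hold few reads of Dlk1, Peg3 and Nnat, so differences in these genes were not detectable there unless large.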

Other observations

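The TauT-/- libraries numbered 1, which stood out for Igf2, also stood out for other genes of the lists, which were named after their values were seen. Igf2bp3, a protein of the IGF axis list that binds Igf2 RNA, had 26.0 CPM in the male and 27.4 CPM in the female library 1, against 0.0575 to 0.766 CPM in the other 13 libraries. Slc38a4, a paternally expressed amino acid transporter, had 55.4 and 58.6 CPM there and at most 4.88 CPM elsewhere. Dio3, the paternally expressed deiodinase of the Dlk1 to Dio3 region, had 707 and 677 CPM there, against 1.15 to 222 CPM elsewhere. Over all 15 libraries the log2 fold change was 4.55 for Igf2bp3, 2.81 for Slc38a4 and 1.05 for Dio3, and edgeR gave adjusted p = 0.105, 0.227 and 0.495. The 2 libraries are nearly the same, so they may count as 1 sample.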
